A study of Mus musculus with 8 samples.

Results

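The genes described here are 54 mouse genes of mitosis, the spindle and the kinetochore, read from a table of 43432 gene IDs that covers RNA from lenses at embryonic day 14.5. They were chosen by symbol, for what their products do in dividing cells, with no threshold on a measured value. The choice was made with earlier results of these data known. All 54 were found once in the table and passed the filter on low counts, among 16241 genes tested. One group of lenses was labelled Mettl3 CKO, where CKO stands for conditional knockout (4 libraries, replicates a to d), and the other was labelled control (4 libraries, replicates a to d). The Mettl3 protein is the methyltransferase that adds N6-methyladenosine to mRNA. Both groups were labelled as lens of the same age, sequenced as polyadenylated RNA. The labels name no strain, Cre driver or floxed allele for either group, and give no number of lenses or animals per library. The p-values below therefore measure only how these libraries vary, and part of that may be technical.

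Mitosis begins when cyclin-dependent kinase 1, bound to a B-type cyclin, is switched on, and ends after the checkpoint at the kinetochores has let the anaphase promoting complex destroy securin and the cyclins. Kinetochores are the protein plates on centromeres that hold chromosomes to spindle microtubules, and kinesins are the motors and microtubule regulators that shape the spindle. In the embryonic lens, dividing cells belong to the anterior epithelium and its germinative zone, while cells that elongate into fibers leave the cell cycle. Most genes of this kind are transcribed late in the cycle, and many of their promoters carry a short element called the cell cycle genes homology region (CHR) near CCAAT boxes. Through the CHR, the DREAM complex represses them in resting cells, and MuvB with B-Myb and FoxM1 activates them in dividing cells.

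Promoter windows are shown first, since many of these genes share an element there. RefSeq start sites of build GRCm38.p6 gave 50 windows for 44 of the 54 genes, each from 250 bases before to 50 bases after a start. The stretches printed are the 250 bases before the start for the 4 genes with the smallest p-values in the comparison below that have a window. They are in lower case, 5′ to 3′ on the gene's strand, with capitals for CHR letters (TTTGAA or TTTAAA) and CCAAT on either strand. Cdca4 lies at chr12:112829390-112829639, minus strand, Cenpf at chr1:189688087-189688336, minus strand, Birc5 at chr11:117848987-117849236, plus strand, and Cenpe at chr3:135212313-135212562, plus strand.
Cdca4: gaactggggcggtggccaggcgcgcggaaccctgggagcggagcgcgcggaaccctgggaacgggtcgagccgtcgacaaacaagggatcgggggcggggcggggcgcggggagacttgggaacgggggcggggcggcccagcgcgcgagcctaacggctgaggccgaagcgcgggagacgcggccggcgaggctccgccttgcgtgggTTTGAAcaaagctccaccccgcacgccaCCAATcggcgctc
Cenpf: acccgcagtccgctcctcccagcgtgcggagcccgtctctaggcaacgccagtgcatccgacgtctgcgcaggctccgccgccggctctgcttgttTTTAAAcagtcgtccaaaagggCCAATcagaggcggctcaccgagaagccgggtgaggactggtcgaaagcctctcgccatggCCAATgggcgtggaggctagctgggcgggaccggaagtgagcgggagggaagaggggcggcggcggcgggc
Birc5: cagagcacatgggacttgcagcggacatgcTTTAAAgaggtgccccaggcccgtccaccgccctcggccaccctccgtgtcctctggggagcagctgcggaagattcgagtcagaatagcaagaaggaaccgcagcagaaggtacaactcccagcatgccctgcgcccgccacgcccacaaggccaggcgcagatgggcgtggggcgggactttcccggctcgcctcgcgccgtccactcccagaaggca
Cenpe: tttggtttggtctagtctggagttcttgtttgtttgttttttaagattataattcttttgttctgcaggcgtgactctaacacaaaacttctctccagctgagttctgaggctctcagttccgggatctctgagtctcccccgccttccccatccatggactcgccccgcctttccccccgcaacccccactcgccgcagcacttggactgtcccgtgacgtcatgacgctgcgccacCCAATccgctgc

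Cdca4 has another window, from a start further upstream, that holds none of these letters. Bases just after the start lay in an annotated transcript of the same gene for 40 of the 50 windows, among them the 4 printed. This other Cdca4 window was not among the 40. In the one printed the CHR letters began 41 bases before the start and the CCAAT box 13 bases before it. Cenpf had a CHR match 154 bases before the start and another 2 bases after it, and Cenpe had one 14 bases after it, in the part of the window that is not printed. Birc5 had CHR letters 220 bases before the start and no CCAAT in the window. Over the 50 windows of these genes, 72.0% held CHR letters, against 19.6% of the 14761 windows of all genes tested. CCAAT was in 78.0% of the mitosis windows and in 37.3% of all windows, and both elements were in 62.0% and 7.69%. An E2F site (TTTCCCGC, TTTCGCGC, TTTGCCGC or TTTGGCGC, either strand) was in 3 of 50 windows, among them that of Cdc25a, and in 3.73% of all. CHR letters were in 63.6% of the 11 windows of genes that passed the test below and in 74.4% of the 39 windows of those that did not. These are matches of letters, given as a description, and the windows of a gene with several starts can overlap.

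**Figure D1:**
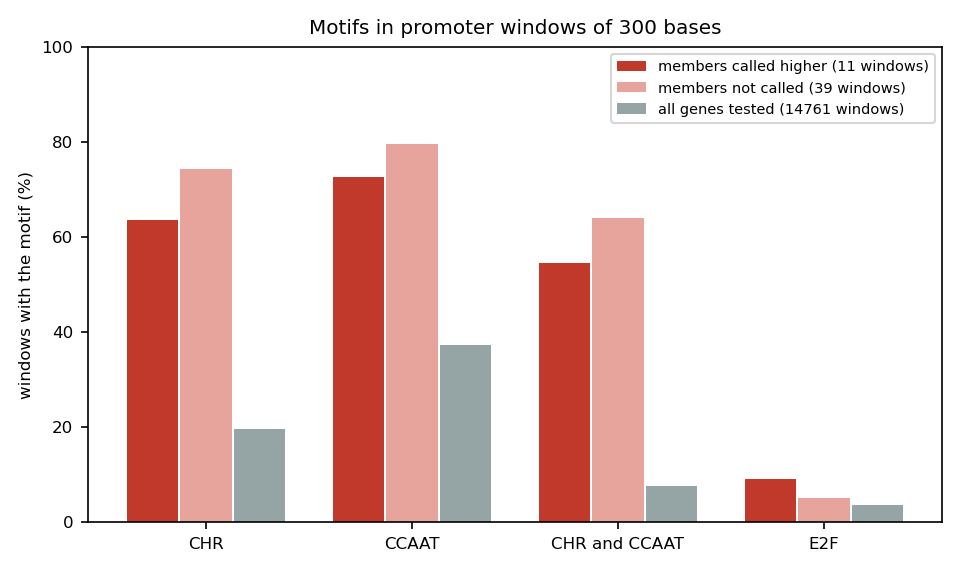
Share of 300-base promoter windows (y axis, percent) that hold CHR, CCAAT, both, or E2F letters (x axis), for mitosis genes called higher in CKO lenses, mitosis genes not called, and all genes tested. CHR letters are in 63.6% and 74.4% of the mitosis windows and in 19.6% of all windows.

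Transcripts of this group were, on balance, somewhat more abundant in CKO lenses. Of the 54 genes, 12 rose, none fell and 42 did not pass the test, and the fold changes of the 12 lay between 1.23 and 2.31. In RNA from lenses in bulk, more dividing cells and more mitotic transcript per dividing cell cannot be told apart. The part of fiber cells and of other cell types in these levels was not tested, and their markers are given further below. Gene positions below are those of GENCODE M21 (mm10). Among all genes tested, 6.50% were called higher and 4.01% lower, against 22.2% and none of the mitosis genes. The genes that rose were Cdca4, Cdca2, Cenpf, Birc5, Cenpe, Aurka, Nek2, Aspm, Mybl2, Bub1b, Tpx2 and Cdc25a. The median log2 fold change, CKO over control, was 0.24 over the 54 genes and -0.03 over all genes tested, and 43 of 54 values lay above 0 (79.6%, against 46.9% of all genes). In edgeR's quasi-likelihood test an adjusted p under 0.05 made a call. At an unadjusted p under 0.05, 24 mitosis genes were higher and none lower, with 2251 of 16241 genes higher.

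The count of 12 depended on single libraries. It was 5 without CKO c or CKO d, 6 without control b or control d, and between 9 and 13 without any other library. The share of all genes called higher moved too. It was 3.59% and 2.83% without CKO c and CKO d, and 3.42% and 2.34% without control b and control d. With any other library left out it was 4.37% to 8.86%, against 6.50% with all 8. Cdca4, Cdca2, Cenpf and Birc5 were called in all 8 of these fits, and none of the 54 genes was called lower in any. Other settings moved the background as well. DESeq2 called 17 of the 54 higher and none lower (10% of all genes, 1467 of 14666, and 6.83%), removal of length and GC trends 18 and none (9.95% and 8.29%), coding genes alone 12 and none (7.32% and 4.89%), library totals as the only scaling 20 and none (9.93% and 1.21%), and a fit without a term for the pair of replicates 8 and none (5.47% and 2.94%). Bub1b, Tpx2 and Cdc25a also lost their calls with no filter on low counts or with crystallin genes left out of the scaling, Cdc25a with RLE scaling, and these 3 with Aspm and Cenpe in the fit without the pair term.

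**Figure D2:**
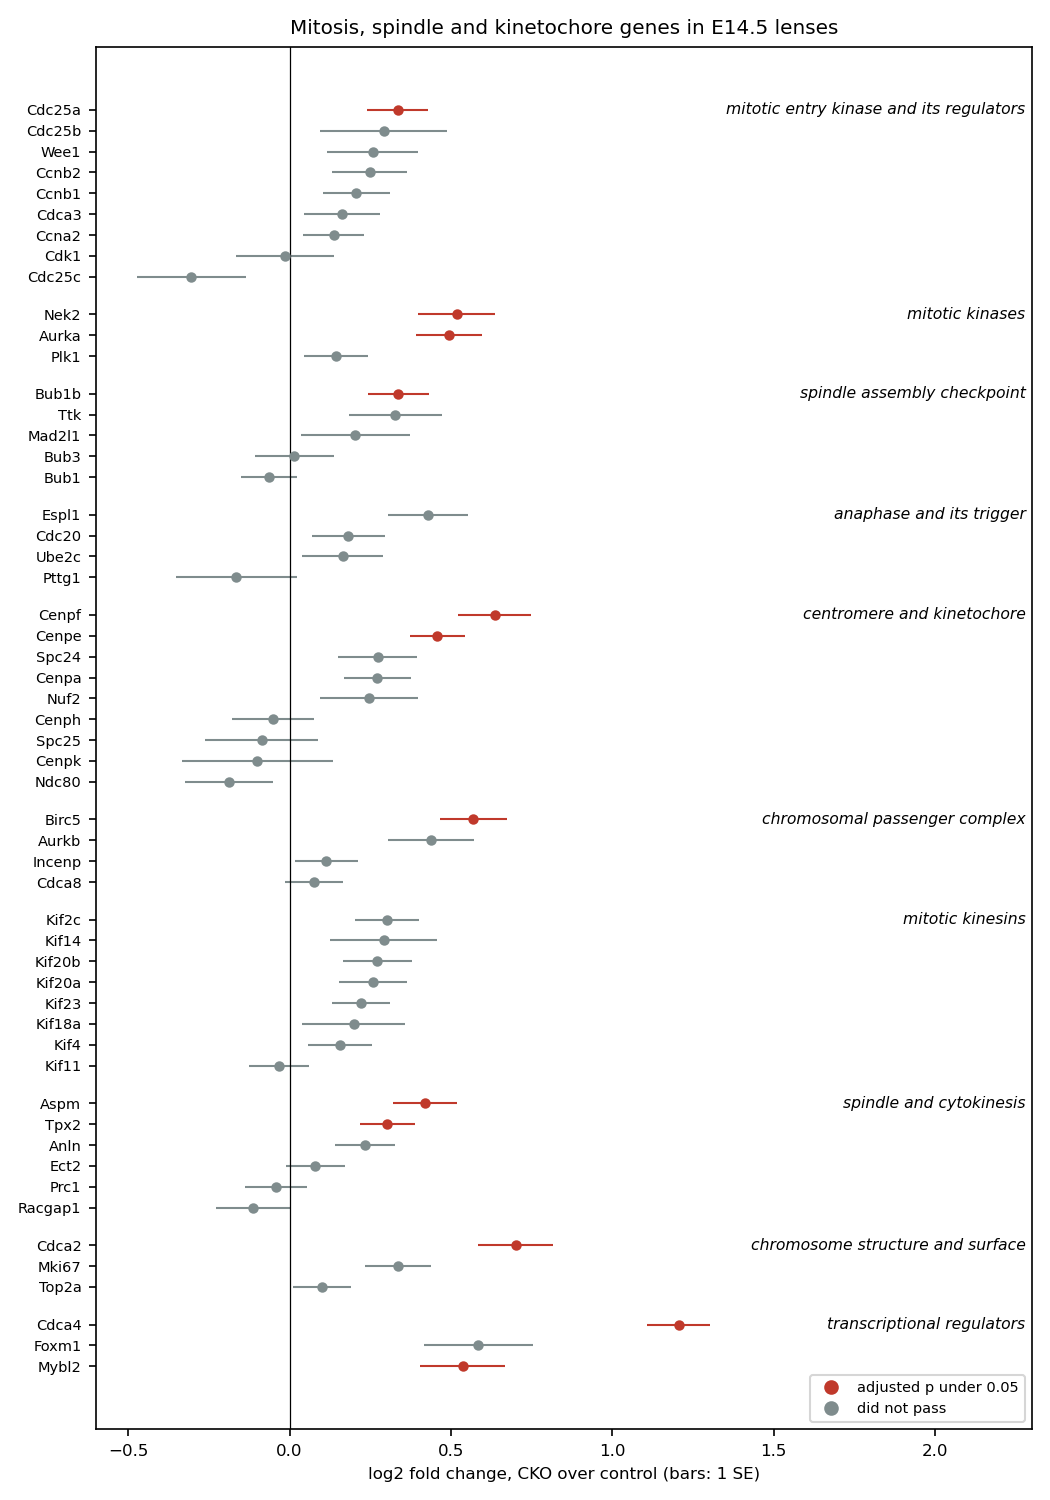
Log2 fold change of each of the 54 genes, CKO over control (x axis, bars 1 SE from the edgeR fit of 4 against 4 libraries), grouped by role. The 12 genes past the test are in red and lie between 0.30 and 1.21, and the other 42 lie between -0.31 and 0.58.

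Every CKO library stood above every control library in the summed level of the 54 genes. The sum was 2105, 2072, 2413 and 2375 CPM (counts scaled to a common library total by TMM) in CKO replicates a to d, against 1874, 1704, 2005 and 2004 CPM in control replicates a to d. Relative to each gene's mean over the controls, the median log2 ratio was 0.18, 0.13, 0.26 and 0.26 in CKO a to d and -0.02, -0.18, 0.06 and 0.08 in control a to d. Control b was low for most of the group, with 7 of 54 genes above the control mean, while CKO c and CKO d were high, with 45 and 46. For all genes tested the same median lay between -0.07 and -0.01 in CKO libraries and between -0.03 and 0.02 in controls.

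**Figure D3:**
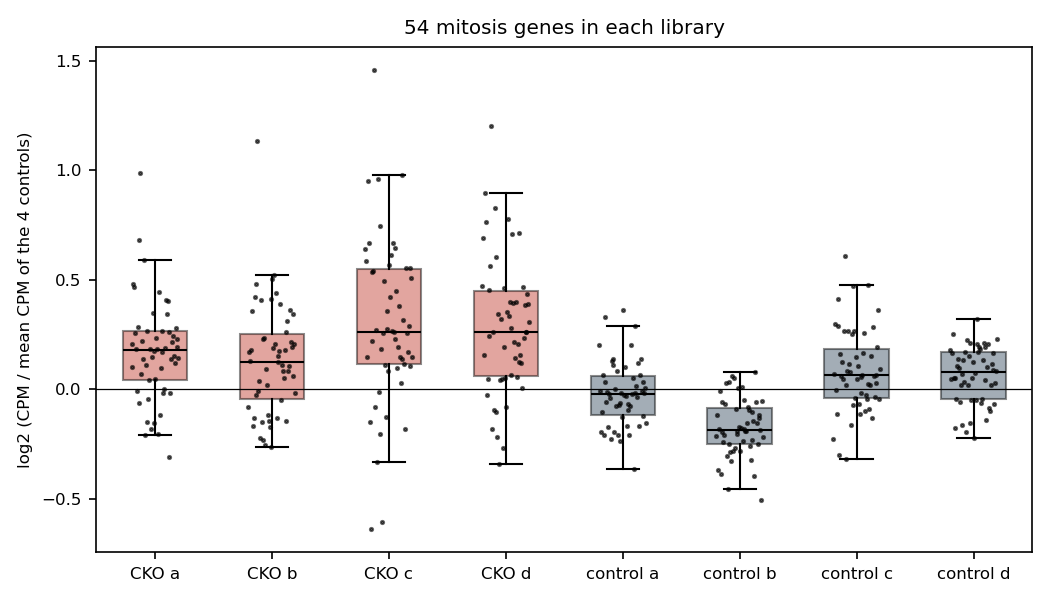
Log2 ratio of CPM to the mean of the 4 control libraries (y axis) for the 54 genes in each of the 8 libraries (x axis). Points are genes, boxes give quartiles and whiskers reach 1.5 interquartile ranges. Medians are 0.13 to 0.26 in CKO libraries and -0.18 to 0.08 in controls.

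All 4 CKO libraries lay above all 4 controls for 14 genes (25.9%, against 8.96% of all genes tested), and in none did all 4 lie below (7.38% of all genes). Of these 14, 10 passed the test. The other 4 were Spc24, Kif20a, Anln and Mki67. Levels per length differed widely within the group. In controls, Top2a had 22.2 and Cdc20 21.6 CPM per kb of exon, the highest of the 54, and Kif18a the lowest at 0.80 CPM per kb.

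At the top of the cascade, the kinase and cyclins of mitotic entry did not pass the test, and of their 9 genes only Cdc25a rose. Cdc25a (ENSMUSG00000032477, chromosome 9, 109875579 to 109893895, plus strand) encodes a phosphatase that activates cyclin-dependent kinases in S phase and at the entry into mitosis. It had 30.1, 29.7, 36.6 and 33.7 CPM in CKO a to d, against 25.8, 24.8, 24.96 and 27.3 CPM in control a to d. The groups did not overlap, and the log2 fold change was 0.34 (SE 0.10, adjusted p = 0.046 in edgeR). The call ended when any 1 of the 8 libraries was left out (adjusted p 0.0582 to 0.166).

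Cdk1, the kinase itself, had 57.4, 44.9, 45.5 and 49.6 CPM in CKO a to d, against 43.7, 38.6, 67.3 and 52.4 CPM in control a to d. Its control libraries spread more widely than the groups differed, and the log2 fold change was -0.01 (95% interval -0.35 to 0.33, adjusted p = 0.965). Ccnb1, the main B-type cyclin, had 70.7, 62.4, 73.3 and 72.7 CPM in CKO a to d, against 59.0, 49.2, 73.0 and 61.5 CPM in control a to d. Control c lay within the range of the CKO libraries, and the log2 fold change was 0.21 (95% interval -0.02 to 0.44, adjusted p = 0.24).

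Ccna2 (0.14), Ccnb2 (0.25), the phosphatase gene Cdc25b (0.29), the inhibitory kinase gene Wee1 (0.26) and Cdca3 (0.16), whose product takes part in the destruction of Wee1, had log2 fold changes above 0 without passing. Cdc25c, the third phosphatase of the family, had the lowest value of the 54 genes, -0.31 (95% interval -0.68 to 0.07, adjusted p = 0.283).

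Of 3 mitotic kinase genes outside the checkpoint, Aurka and Nek2 rose and Plk1 did not pass. Aurka (ENSMUSG00000027496, chromosome 2, 172356190 to 172370535, minus strand) encodes Aurora A, which builds the spindle poles. It had 36.4, 36.2, 42.5 and 35.2 CPM in CKO a to d, against 23.8, 25.9, 26.4 and 30.9 CPM in control a to d. Every CKO library lay above every control (log2 fold change 0.49, SE 0.10, adjusted p = 0.0145).

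Nek2 (ENSMUSG00000026622, chromosome 1, 191821444 to 191833050, plus strand) encodes a kinase that lets the centrosomes separate. Its level was 23.5, 25.1, 31.2 and 33.3 CPM in CKO a to d, against 20.5, 19.5, 18.1 and 20.3 CPM in control a to d. The groups did not overlap and CKO c and d were highest (log2 fold change 0.52, SE 0.12, adjusted p = 0.0218). Plk1 encodes the polo-like kinase that acts from entry to cytokinesis. It had 38.6, 48.5, 42.3 and 42.5 CPM in CKO a to d, against 42.4, 41.2, 35.7 and 36.9 CPM in control a to d, and the groups overlapped (log2 fold change 0.14, 95% interval -0.07 to 0.36, adjusted p = 0.393). The Aurka call ended without CKO c (adjusted p = 0.0567), and that of Nek2 without CKO c, CKO d, control b or control d (up to 0.0977).

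Among 5 genes of the spindle assembly checkpoint, which holds back anaphase until all kinetochores are attached, Bub1b (ENSMUSG00000040084, chromosome 2, 118598211 to 118641591, plus strand) rose. It encodes BubR1, a part of the inhibitor of the anaphase promoting complex. Its level was 54.6, 64.3, 58.6 and 66.6 CPM in CKO a to d, against 47.7, 48.5, 47.0 and 50.2 CPM in control a to d. The groups did not overlap and the controls lay close together (log2 fold change 0.34, SE 0.09, adjusted p = 0.045). Leaving out CKO a or control c kept the call, and leaving out any other library ended it (adjusted p up to 0.19). Its partners did not pass, with log2 fold changes of 0.33 for the checkpoint kinase gene Ttk, 0.20 for Mad2l1, 0.02 for Bub3 and -0.06 for the kinase gene Bub1.

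None of the 4 genes of the anaphase trigger passed. Espl1, which encodes separase, the protease that cuts cohesin, was nearest to the threshold with a log2 fold change of 0.43 (adjusted p = 0.0512), and it passed without control a (adjusted p = 0.0147). With any other library left out, Espl1 did not pass (adjusted p up to 0.187). Cdc20 and Ube2c, an activator and a ubiquitin-conjugating enzyme of the anaphase promoting complex, had values of 0.18 and 0.16. Pttg1, the securin gene, had -0.17 (95% interval -0.58 to 0.25).

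At the centromere and kinetochore, 2 of 9 genes rose, both for large proteins of the outer corona. Cenpf (ENSMUSG00000026605, chromosome 1, 189640606 to 189688086, minus strand) had 75.6, 62.0, 105.7 and 101.7 CPM in CKO a to d, against 50.9, 48.3, 54.6 and 65.1 CPM in control a to d. CKO b lay below control d, so the groups overlapped, and CKO c and d stood apart as the highest. The log2 fold change was 0.64 (SE 0.11, adjusted p = 0.00697). Cenpe (ENSMUSG00000045328, chromosome 3, 135212537 to 135273611, plus strand) encodes a kinesin that carries chromosomes to the spindle equator. It had 55.4, 51.2, 72.1 and 75.2 CPM in CKO a to d, against 39.9, 40.4, 51.6 and 52.3 CPM in control a to d. CKO b lay just below control c and d, while within each pair of replicates (a and b, c and d) the CKO libraries were higher, and the log2 fold change was 0.46 (SE 0.09, adjusted p = 0.00882). That call ended without CKO d (adjusted p = 0.0549).

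Cenpa encodes the histone variant that marks the centromere. It had 34.2, 32.4, 39.1 and 39.6 CPM in CKO a to d, against 31.1, 25.1, 29.1 and 34.8 CPM in control a to d. The groups overlapped, and the log2 fold change of 0.27 (95% interval 0.04 to 0.50) had an adjusted p of 0.126. Genes of the Ndc80 complex, which grips the microtubule, were split around 0. Spc24 had 0.27 and Nuf2 0.25, against -0.19 for Ndc80 and -0.09 for Spc25, and none passed. The inner kinetochore genes Cenph and Cenpk had -0.05 and -0.10. Without control c, Spc25 had 0.12 and Cenpk 0.16, so both turned sign. Cenpk also turned sign without CKO c (0.03).

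The chromosomal passenger complex corrects wrong attachments and later directs cytokinesis. Birc5 (ENSMUSG00000017716, chromosome 11, 117849251 to 117855743, plus strand) encodes its survivin subunit and rose. It had 37.0, 32.2, 33.6 and 34.1 CPM in CKO a to d, against 22.9, 19.98, 24.1 and 25.4 CPM in control a to d. The gap between the groups was wider than the spread within either, and the log2 fold change was 0.57 (SE 0.10, adjusted p = 0.00786). Aurkb, its kinase, had a log2 fold change of 0.44 (adjusted p = 0.0598), and passed without control a (adjusted p = 0.0205). With any other library left out, Aurkb did not pass (adjusted p up to 0.183). The scaffold gene Incenp had 0.11 and Cdca8, the borealin gene, 0.08.

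None of the 8 mitotic kinesin genes passed, although 7 of their 8 values lay above 0. Kif2c, which takes tubulin off microtubule ends at the centromere, had the largest, 0.30 (adjusted p = 0.0795), and it passed without control c (adjusted p = 0.0251). With any other library left out, Kif2c did not pass (adjusted p up to 0.249). Kif14, Kif20b, Kif20a, Kif23, Kif18a and Kif4 had values between 0.16 and 0.29. Kif11, the motor that pushes the spindle poles apart, had -0.03 (95% interval -0.24 to 0.17).

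Of 6 genes of spindle assembly and cytokinesis, Aspm and Tpx2 rose. Aspm (ENSMUSG00000033952, chromosome 1, 139454772 to 139494091, plus strand) encodes a spindle pole protein of dividing progenitors. It had 37.6, 36.7, 48.95 and 52.6 CPM in CKO a to d, against 32.4, 30.0, 34.2 and 33.6 CPM in control a to d. The groups did not overlap and CKO c and d were highest (log2 fold change 0.42, SE 0.10, adjusted p = 0.0247). Tpx2 (ENSMUSG00000027469, chromosome 2, 152847964 to 152895321, plus strand) encodes the activator of Aurora A on spindle microtubules. Its values were 66.8, 64.6, 76.1 and 72.4 CPM in CKO a to d, against 55.8, 50.2, 61.2 and 59.8 CPM in control a to d. The groups did not overlap (log2 fold change 0.30, SE 0.09, adjusted p = 0.046).

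The Aspm call ended without CKO c, CKO d, control b or control d (adjusted p up to 0.112). Tpx2 kept its call only without control c, and otherwise had an adjusted p of up to 0.158. The cytokinesis genes did not pass, with values of 0.23 for Anln, 0.08 for Ect2, -0.04 for Prc1 and -0.11 for Racgap1.

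Of 3 genes for proteins of chromosome structure and surface, Cdca2 (ENSMUSG00000048922, chromosome 14, 67676331 to 67715841, minus strand) rose. It encodes Repo-Man, which brings protein phosphatase 1 to chromatin as cells leave mitosis. Its level was 40.5, 35.7, 52.3 and 47.8 CPM in CKO a to d, against 29.4, 22.7, 27.3 and 28.2 CPM in control a to d. The groups did not overlap, and the log2 fold change was 0.70 (SE 0.12, adjusted p = 0.00519).

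Mki67, the gene of the common proliferation marker Ki-67, had 181.7, 168.6, 230 and 216.3 CPM in CKO a to d, against 164.1, 140.6, 163.2 and 158.8 CPM in control a to d. All CKO libraries lay above all controls, and the log2 fold change of 0.34 (95% interval 0.11 to 0.56, adjusted p = 0.0597) missed the threshold, passing without control a (adjusted p = 0.0431). With any other library left out, Mki67 did not pass (adjusted p up to 0.203). Top2a, the gene of the topoisomerase that untangles sister chromatids, had 191.1, 196, 233 and 236.5 CPM in CKO a to d, against 191.8, 169.4, 223.4 and 214.8 CPM in control a to d. Replicates c and d were higher than a and b in both genotypes, and the log2 fold change was 0.10 (95% interval -0.10 to 0.30, adjusted p = 0.528).

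The 3 genes for transcriptional regulators had the highest median of any role, 0.58. That median is the value of Foxm1, which did not pass. Cdca4 (ENSMUSG00000047832, chromosome 12, 112820229 to 112829423, minus strand) encodes a nuclear protein with a SERTA domain that is linked to E2F-dependent transcription, and it is not a part of the spindle or the kinetochore. It had 40.5, 44.9, 56.2 and 47.1 CPM in CKO a to d, against 18.2, 19.5, 22.3 and 21.9 CPM in control a to d. The lowest CKO library was far above the highest control (log2 fold change 1.21, SE 0.10, adjusted p = 0.000184), the single change of over 2-fold in the group.

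Mybl2 (ENSMUSG00000017861, chromosome 2, 163054687 to 163084688, plus strand) encodes B-Myb, the partner of MuvB at CHR promoters. It had 17.2, 21.8, 23.2 and 25.98 CPM in CKO a to d, against 16.3, 15.3, 14.5 and 14.7 CPM in control a to d. CKO a lay just above control a, the other knockouts were clearly higher, and the log2 fold change was 0.54 (SE 0.13, adjusted p = 0.028). Its call ended without CKO b, CKO c, CKO d, control b or control d (adjusted p up to 0.119).

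Foxm1, the forkhead activator of late cell cycle genes, had 39.2, 33.5, 58.2 and 48.6 CPM in CKO a to d, against 36.1, 27.6, 27.8 and 26.8 CPM in control a to d. CKO b lay below control a, which stood apart from the other controls, and the log2 fold change of 0.58 (95% interval 0.21 to 0.96) had an adjusted p of 0.0534. It passed without control a (adjusted p = 0.0152) or CKO b (adjusted p = 0.0353). With any other library left out, Foxm1 did not pass (adjusted p up to 0.196).

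**Figure D4:**
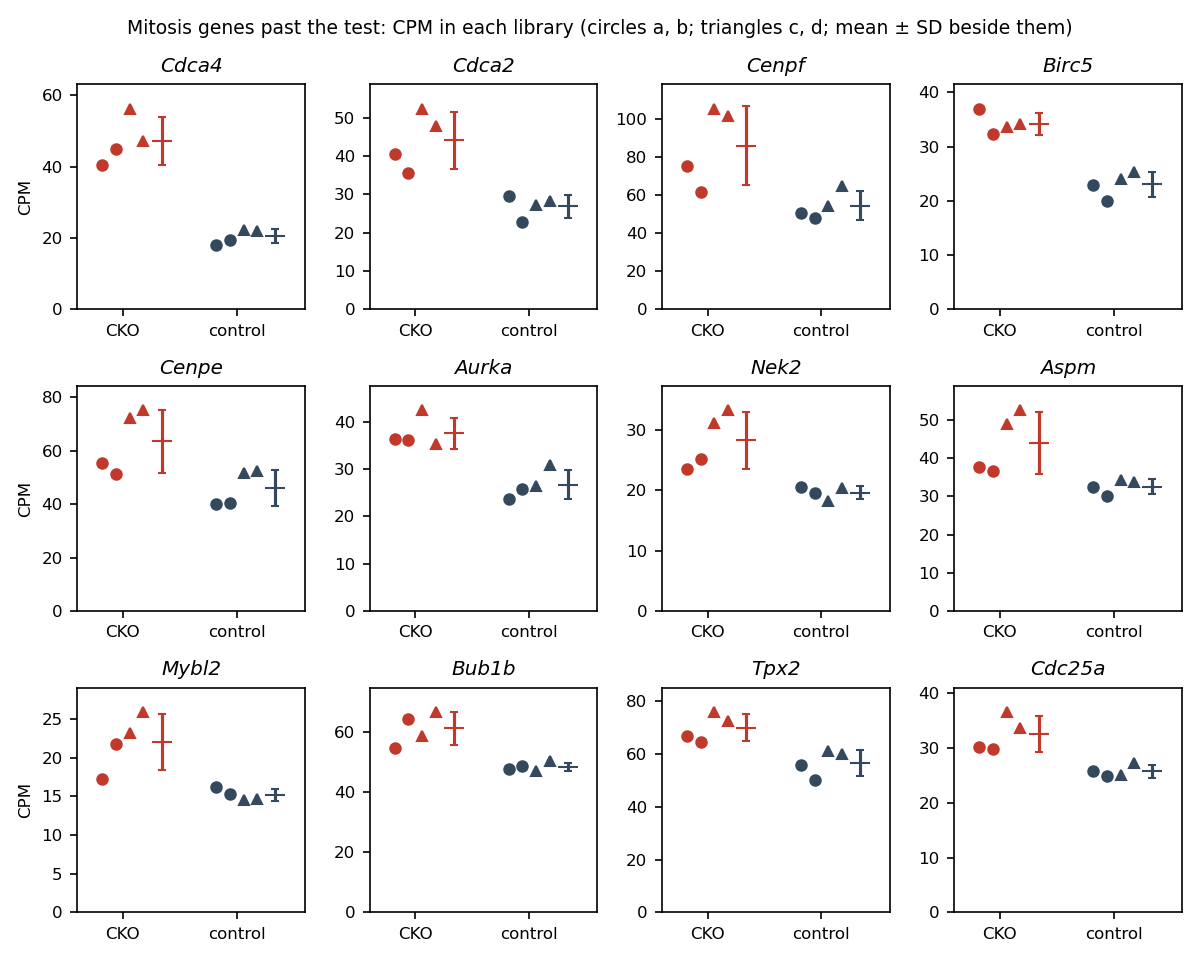
CPM (y axis, from 0) of the 12 genes past the test in each library, CKO left and control right. Circles are replicates a and b, triangles are replicates c and d, and the bar beside them gives the mean and SD of 4 libraries. Cdca4 lies between 40.5 and 56.2 CPM in CKO libraries and between 18.2 and 22.3 CPM in controls.

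Replicates a and b and replicates c and d are listed apart in the records of the series, and the difference between genotypes was set out in each pair. The median log2 fold change of the 54 genes was 0.22 in replicates a and b and 0.25 in replicates c and d, against -0.004 and -0.015 over the genes tested in each. A value above 0 in both pairs was found for 37 genes (68.5%, against 28.8% of all genes) and below 0 in both for 2 (30.5% of all genes), with all 12 called genes among the 37. The 12 were called in the fit of both pairs together, so their place among the 37 is not a separate test. Within replicates a and b alone 6 genes were called higher (4.97% of all genes), and within c and d alone 9 (4.05%). Of the 12 genes called on all libraries, 4 were among those 6, and 6 were among those 9. The others were Mad2l1 and Nuf2 in a and b, and Aurkb, Espl1 and Foxm1 in c and d. None of the 54 was called lower in either pair, against 3.66% and 0.936% of all genes. Cdk1 and Foxm1 differed most between the pairs among the genes given in full, with 0.29 and 0.17 in a and b and -0.29 and 1.01 in c and d. The interaction of genotype and pair gave no call for any of the 54 genes or for any of 16241 (smallest adjusted p in the group 0.174), and at an unadjusted p under 0.05 it gave 6 and 2662.

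**Figure D5:**
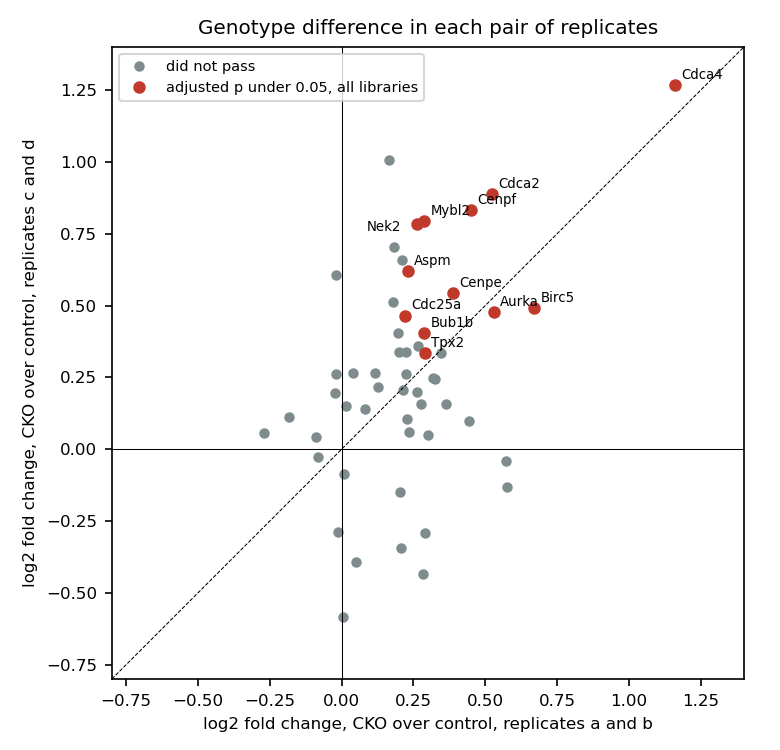
Log2 fold change, CKO over control, of the 54 genes within replicates a and b (x axis) and within replicates c and d (y axis), with the 12 called genes in red and named. The dashed line marks equal values, and all 12 lie above 0 in both, from 0.22 to 1.16 on the x axis and from 0.34 to 1.27 on the y axis. The 12 were called on both pairs together, so this is not a separate test.

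Other genes of the same machinery were tested in the same fit. The anaphase promoting complex and its regulators had 1 rise and 1 fall among 17 genes, Fbxo5 (0.95, SE 0.13, adjusted p = 0.00182), which encodes the inhibitor Emi1, and Anapc16 (-0.43, SE 0.12, adjusted p = 0.0417), with a median log2 fold change of -0.13. Of 21 genes of condensin, cohesin and cohesion, 2 rose, Cdca5 (1.003, SE 0.11, adjusted p = 0.000724), the sororin gene, and Sgo1 (0.68, SE 0.12, adjusted p = 0.0062), the shugoshin gene, and none fell (median 0.03). Among 28 further centromere and kinetochore genes 4 rose and none fell (median 0.17). Those with the smallest p-values were Mis12 (0.80, SE 0.09, adjusted p = 0.000689), Cenpb (0.73, SE 0.11, adjusted p = 0.00336) and Cenpj (0.59, SE 0.13, adjusted p = 0.0175), and the other was Cenpl (0.72, SE 0.16, adjusted p = 0.0208). Cenpj bears a centromere name but encodes a centriole protein.

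Mad2l1bp, whose product p31comet switches the checkpoint off, rose by 1.19 (SE 0.15, adjusted p = 0.0012), and Spdl1 by 0.48 (SE 0.12, adjusted p = 0.0271), among 9 further checkpoint genes of which none fell (median 0.31). Of 54 other spindle, centrosome and cytokinesis genes 9 rose and 3 fell (median 0.18). By p-value the first were Fam83d (0.87, SE 0.11, adjusted p = 0.0015), Haus6 (0.69, SE 0.10, adjusted p = 0.00304) and Kifc1 (0.56, SE 0.12, adjusted p = 0.0162), and Stil had the same adjusted p at 0.61 (SE 0.13). The 3 that fell were Nek7, Ensa and Haus7. Of 21 genes of DREAM, MuvB and E2F, E2f3 rose (0.55, SE 0.13, adjusted p = 0.0231) and E2f5 fell (-0.56, SE 0.12, adjusted p = 0.0137), with a median of 0.07. The shares of all genes called, 6.50% higher and 4.01% lower, are the background for each of these counts.

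The transcripts of the 54 genes were also set against features that the choice did not use. They lie on 18 chromosomes. GGACT, the sequence in which N6-methyladenosine is most often written, occurred 1.08 times per kb (median) in the longest coding transcripts of the 12 called genes, 0.99 times in those of the 42 others and 1.05 times in those of 14025 coding genes tested. Median transcript lengths were 3660, 3039 and 3180 bases. At least 1 GGACT in an exon of over 400 bases, a count made after the values were seen, was found for 58.3% of the called genes, 59.5% of the others and 74.7% of all. These are counts of letters and say nothing of methylation, which was not measured here.

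The libraries held 19110170 to 51142336 counts in CKO lenses and 24374038 to 56098211 in controls. Depth split by pair: replicates a and b held 19110170 to 25662135 counts, and replicates c and d 45310168 to 56098211. Relative counting error is therefore larger in a and b, and it is larger in genes of low CPM. Mettl3 was lower in every CKO library (12.4 CPM ± 3.25, SD, n = 4) than in any control (24.8 CPM ± 2.94, SD, n = 4), and the log2 fold change was -1.02 (adjusted p = 0.00259). Over all genes 1055 were called higher and 651 lower, or 1612 and 197 with library totals as the only scaling. Fiber markers were abundant in all libraries. Of 15, 2 fell (Lim2 and Cryab) and none rose, all 15 values lay below 0, and the median log2 fold change was -0.33, or -0.17 with library totals as the only scaling, where 1 value lay above 0 and the median of all genes was 0.12. Their sum was 204875, 195122, 147943 and 157334 CPM in CKO a to d, against 192258, 237557, 238042 and 216736 CPM in control a to d. It was lowest in CKO c and d, the libraries in which the summed level of the mitosis genes was highest. Other libraries were mixed. Control b had a high fiber sum with the lowest mitosis sum (1704 CPM). Control c had nearly the same fiber sum as control b, with a mitosis sum of 2005 CPM, nearly that of control d (2004 CPM). Ranks this close can change with the scaling, and these sums rest on TMM. CKO a lay above control a in both sums (2105 against 1874 CPM for the mitosis genes).

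Of 11 markers of the epithelium, where lens cells divide, Gja1 rose and Itga6, Npnt, Aldh1a1 and Pdgfra fell, with 4 values above 0 and a median log2 fold change of -0.20, and the sum was 4023 to 4396 CPM in CKO libraries and 4414 to 4923 CPM in controls. Of 10 macrophage markers 4 rose (C1qa, C1qb, C1qc and Cx3cr1), all 10 values lay above 0, and the median log2 fold change was 0.84. Their sum was 120.1, 126.4, 60.2 and 52.5 CPM in CKO a to d, against 46.0, 52.7, 52.5 and 35.6 CPM in control a to d, highest in CKO a and b. None of 12 retinal markers passed, although all 12 values lay above 0 (median log2 fold change 1.75, smallest adjusted p 0.063), with sums of 42.3 to 182.2 CPM in CKO libraries, the highest in CKO c, and 16.5 to 68.7 CPM in controls. Endothelium and pericyte sums (10 genes, 275.7 to 860.8 CPM in CKO libraries and 288.7 to 664.2 CPM in controls), erythroid sums (10 genes, 446.9 to 4118 and 585.8 to 2236 CPM) and mesenchyme sums (10 genes, 54.8 to 281.1 and 68.0 to 287.5 CPM) overlapped, with no call in any list. Their median log2 fold changes were 0.14, -0.40 and -0.21, with 9, 0 and 2 of 10 values above 0. Of 8 pigment epithelium markers 5 were tested and none passed (median log2 fold change 1.41, 4 values above 0), with Rpe65 at 0 in all libraries and sums of 24.5 to 44.2 CPM in CKO libraries and 25.7 to 30.0 CPM in controls. No other listed marker was at 0 in all libraries. The part of fiber cells and of these other cells in the levels of the mitosis genes was not tested.

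Exons of 15 of the 54 genes overlap those of a neighbouring gene, and since the strand setting of the counting is not given in the sources used here, reads there cannot be assigned with certainty. The overlap exceeds 10% of the exon length in Ccna2, Cdc25c, Ube2c, Kif20a, Kif4 and Prc1, none of which was called.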

How the data were processed

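RNA of 8 lens libraries was analysed, 4 labelled Mettl3 CKO and 4 labelled control. The submitters' processing notes name HISAT2, featureCounts and CASAVA and the build mm10, without versions. The authors deposited unnormalised whole-number read counts by Ensembl ID in a single table. For the annotation release and the strand setting nothing is given in the sources used here. Of 43432 IDs, 42548 matched GENCODE M21 (mm10), which gave symbols, coordinates and lengths. The 54 genes, their roles, the other lists and the naming rule were chosen with earlier results of these data known.

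The test was run with edgeR 4.0.16 under R 4.3.3. The function filterByExpr (minimum count 10, minimum total 15) kept 16241 genes, TMM set the library scaling, and a robust quasi-likelihood fit over all genes had genotype and the replicate pair (ab or cd) as its terms. Benjamini-Hochberg adjustment ran over all genes tested, and every adjusted p is from this fit unless another is named. Intervals are 95% and come from the same fit. Libraries of 1 genotype differed by far more than counting noise (chi-square per degree of freedom 16.5 to 115.2). The code was tested on simulated counts. Values in all 8 libraries are given for every called gene and for Mki67, Top2a, Ccnb1, Cdk1, Plk1, Cenpa and Foxm1. In the other lists of the same machinery the called genes with the smallest p-values are named, with some further called genes. Alternatives were other scalings, filters, model terms and tools (DESeq2 1.42.0), removal of length and GC trends, and leaving out each library.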

Additional observations from a re-analysis of the deposited data

Results flagged for a closer look

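In 6 of 108 groups of 4 libraries, 1 library stood apart from the other 3 in CPM, by a gap of more than 0.829 of the range (Dixon's criterion). Chance flags about 1 in 20 groups. Among CKO libraries, Aurka was at 42.5 CPM in CKO c (35.2 to 36.4 in the others) and Nuf2 at 27.7 CPM in CKO a (21.7 to 22.1 in the others). Among controls, Cdc20 was at 46.5 CPM in control a (37.7 to 39.1 in the others), Foxm1 at 36.1 CPM in control a (26.8 to 27.8), Spc25 at 22.8 CPM in control c (14.0 to 14.8) and Kif11 at 61.2 CPM in control d (49.6 to 50.4). Without control a the log2 fold change of Foxm1 was 0.74, with an adjusted p of 0.0152.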

How the results depend on the processing

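Against 12 mitosis genes called higher as reported, there were 20 with library totals as the only scaling, 6 within replicates a and b alone, and 5 to 13 when 1 library was left out. The shares of all genes called higher were, in that order, 6.50%, 9.93%, 4.97% and 2.34% to 8.86%. The median log2 fold change of all genes was 0.12 with library totals and -0.03 with TMM, that of the 54 genes 0.39 and 0.24, and the gap between the medians 0.27 under both. Over all genes 1706 were called, 858 within replicates c and d alone and 503 to 2553 when 1 library was left out. With replicate letters as a block (replicate block), 5 mitosis genes were called higher (Cdca4, Cdca2, Cenpf, Birc5 and Cenpe). Of all genes, 505 (3.11%) were called higher there, and 665 in either direction. The letters were not shown to pair the libraries: the deviations of same-letter libraries from their group means correlated at -0.06, 0.09, -0.19 and 0.28 for a to d, and 1 letter of 4 correlated best with its own. Other settings (RLE and upper-quartile scaling, other filters, DESeq2, no term for the pair, replicates c and d alone, crystallin genes left out, length and GC trends removed and, chosen after seeing the data, coding genes only) gave 8 to 18 mitosis genes called higher. None of the 54 was called lower in any setting. Cdk1, at -0.01 and not called, had 0.14 with library totals, 0.29 within replicates a and b, and -0.15 to 0.12 when 1 library was left out. For the 19 genes given with values in all libraries, results over all alternatives held their direction and side of the threshold in 310 cases, lost the call in 69, gained it in 14 and turned direction in 6, all of Cdk1. Over all 54 genes, 6 turned sign when 1 library was left out, none of them called (Bub3, Cdk1, Cenpk, Kif11, Prc1 and Spc25). The causes of these differences were not tested.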
